A study of Mus musculus with 4 samples.

Results

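Mitochondrial ribosomal proteins were followed in liver RNA of fed and fasted wild-type and PPARα-null mice. Members were all genes whose symbol starts with Mrpl or Mrps and a number, taken from probe sets annotated to a single gene, which gave 74 genes among 12393 on the array and 127 of 20380 probe sets. By name, 47 belong to the large subunit and 27 to the small subunit. Of the 74, 73 were measured, that is, above 16 units on at least 1 array, and 57 averaged 64 units or more. Mrpl55 was at or below 15.5 units on all arrays and is left out of the counts.

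The study asked which liver genes depend on PPARα, the nuclear receptor for fatty acids. There were 4 groups of male mice aged 12 to 20 weeks. Wild-type mice were 129S1/SvImJ and PPARα-null mice 129S4/SvJae, so the loss of PPARα cannot be told apart from the difference in substrain. The fed groups were killed as the dark period closed, and the fasted groups had no food for 24 h. RNA of 5 mice was pooled within each group and hybridized to 1 MOE430A array, so every value below is 1 measurement of a pool with no replicate error, no test was possible and no p-value is given. In whole liver RNA, fewer cells of a type and less RNA per cell cannot be told apart.

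Mitochondria carry their own ribosomes, which translate the few messages of mitochondrial DNA, all of them core subunits of the respiratory chain and ATP synthase. The ribosomal RNA comes from mitochondrial DNA, whereas every protein of the particle is encoded in the nucleus, made in the cytosol and imported. Part of the proteins descend from the bacterial ribosome and the rest were added later. Names do not always follow place: Mrps30 and Mrps18a lie in the large subunit, Mrpl58 (also called Ict1) is a peptidyl-tRNA hydrolase built into it, and Mrps36 is now known as a subunit of the 2-oxoglutarate dehydrogenase complex.

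Promoters are shown for 4 members on which the results below turn: Mrpl1 and Mrpl39, with the lowest ratios for fasting in wild-type mice, Mrpl17, with the highest, and Mrpl18, which had the lowest ratio between the fasted genotypes. Each line gives the 150 bases before the start of the gene, 5′ to 3′ on the gene's strand, from RefSeq on GRCm38.p6. Mrpl39 is at chr16:84735245-84735394 (minus strand), Mrpl17 at chr7:105811088-105811237 (minus), Mrpl18 at chr17:12916092-12916241 (minus) and Mrpl1 at chr5:96209965-96210114 (plus). Capitals mark matches to the NRF1 site GCGCATGC or its core TGCGCA, where NRF1 is nuclear respiratory factor 1, an activator of nuclear genes for mitochondrial proteins.
Mrpl39: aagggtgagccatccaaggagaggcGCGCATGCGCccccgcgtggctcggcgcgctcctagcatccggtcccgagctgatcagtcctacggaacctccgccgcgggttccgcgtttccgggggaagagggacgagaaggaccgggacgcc
Mrpl17: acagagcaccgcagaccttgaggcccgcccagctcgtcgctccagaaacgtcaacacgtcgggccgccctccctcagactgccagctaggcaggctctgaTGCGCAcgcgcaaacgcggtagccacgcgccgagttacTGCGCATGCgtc
Mrpl18: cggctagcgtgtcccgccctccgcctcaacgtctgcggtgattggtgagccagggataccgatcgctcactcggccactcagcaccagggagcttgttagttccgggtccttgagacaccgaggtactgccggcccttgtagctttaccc
Mrpl1: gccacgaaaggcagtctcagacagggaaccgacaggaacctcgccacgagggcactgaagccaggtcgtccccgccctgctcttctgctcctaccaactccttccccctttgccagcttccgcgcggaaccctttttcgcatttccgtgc
Mrpl39 carried a run that holds the NRF1 site in both directions, Mrpl17 a site and a separate core close to the start, and the printed bases of Mrpl18 and Mrpl1 held neither motif.

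Of the 74 members, 65 had a promoter in the RefSeq table. Motifs were searched on both strands in 300 bases, 250 before to 50 after the start. The NRF1 site was in 12.3% of the members' promoters, against 3.93% of all protein-coding promoters of the table and 6.1% of those of measured genes. The core TGCGCA, which can overlap the site, was in 32.3% of members, 11% of all promoters and 16.6% of those of measured genes. CCGGAAG, the site of ETS factors such as GABP (nuclear respiratory factor 2), was in 36.9% of members, against 12.9% of all and 21.5% of measured genes. AAGATGGCG, the site of YY1, was in 10.8%, against 2.14% and 3.94%. The E-box CACGTG was in 7.69% of members, 8.91% of all and 12.5% of measured genes. The direct repeat to which PPARα binds, written as 2 copies of AGGTCA with 1 base between them, was found in 0 of 65 members. It was in 0.0572% of all promoters and 0.0351% of those of measured genes. So exact a match is too rare for 0 of 65 to set the members apart from other genes. These are matches of letters in a short window and say nothing about binding.

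A start of another gene lay on the opposite strand within 1000 bases, head to head, for 22 of the 65 members (33.8%), against 8.48% of all promoters and 14.3% of those of measured genes. A single pair held 2 members, Mrpl46 and Mrps11, whose starts lie 42 bases apart. Between the fasted groups Mrpl46 was higher in PPARα-null by 0.63 on the log2 scale and Mrps11 lower, at -0.32. Mrpl18 starts 238 bases from Tcp1, a subunit of the cytosolic chaperonin TRiC. Tcp1 measured 564 units in fed and 894 in fasted wild-type, and 429 in fed and 1089 in fasted PPARα-null liver. In PPARα-null mice the fasting difference was thus 1.35 for Tcp1 and -1.14 for Mrpl18. Among the 11 pairs with both genes measured, the genes of a pair had the same sign in 5 for the fasted genotype comparison and in 3 for the fed one. For fasting they had it in 6 in wild-type and in 4 in PPARα-null mice. The fasted genotype comparison and fasting in PPARα-null mice share an array, so their counts are not separate observations. The partners Cyb5rl and Zfp189 lay below 16 units on every array but fed wild-type. Their pairs thus had no sign between the fasted genotypes or for fasting in PPARα-null mice.

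Ppara itself measured 583 units in fed and 755 in fasted wild-type liver, and 104 in fed and 16.3 in fasted PPARα-null liver. The sources used here do not place its probes against the deleted part. The 10 hepatocyte markers were bright on every array. When arrays were centred on the probe sets that reached 64 units in every pool, the shifts in log2 were 0.10 for fasted PPARα-null and -0.05 for fasted wild-type liver, which moved the median difference of all genes between the fasted arrays from -0.01 to 0.10. Differences between the fasted arrays are therefore read beside the median of all genes. The ratio of 3′ to 5′ signal ran from 2.13 to 2.45 for Actb and from 0.953 to 1.06 for Gapdh.

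The range from the lowest to the highest array had a median of 0.47 on the log2 scale over the 73 members, against 0.57 over all measured genes, and 44 of the members (60.3%) stayed within 1.5-fold, against 51.7% of all measured genes. Among the members it was narrowest for Mrpl51, at 1955, 1960, 1891 and 1902 units in fed wild-type, fasted wild-type, fed PPARα-null and fasted PPARα-null liver. It was widest for Mrpl39, at 688, 352, 680 and 182 units in the same order. The fasted PPARα-null array was the lowest of the 4 for 36 of 73 members (49.3%), against 36.7% of all measured genes. After centring it was the lowest for 28 members (38.4%), against 26% of all measured genes.

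**Figure D1:**
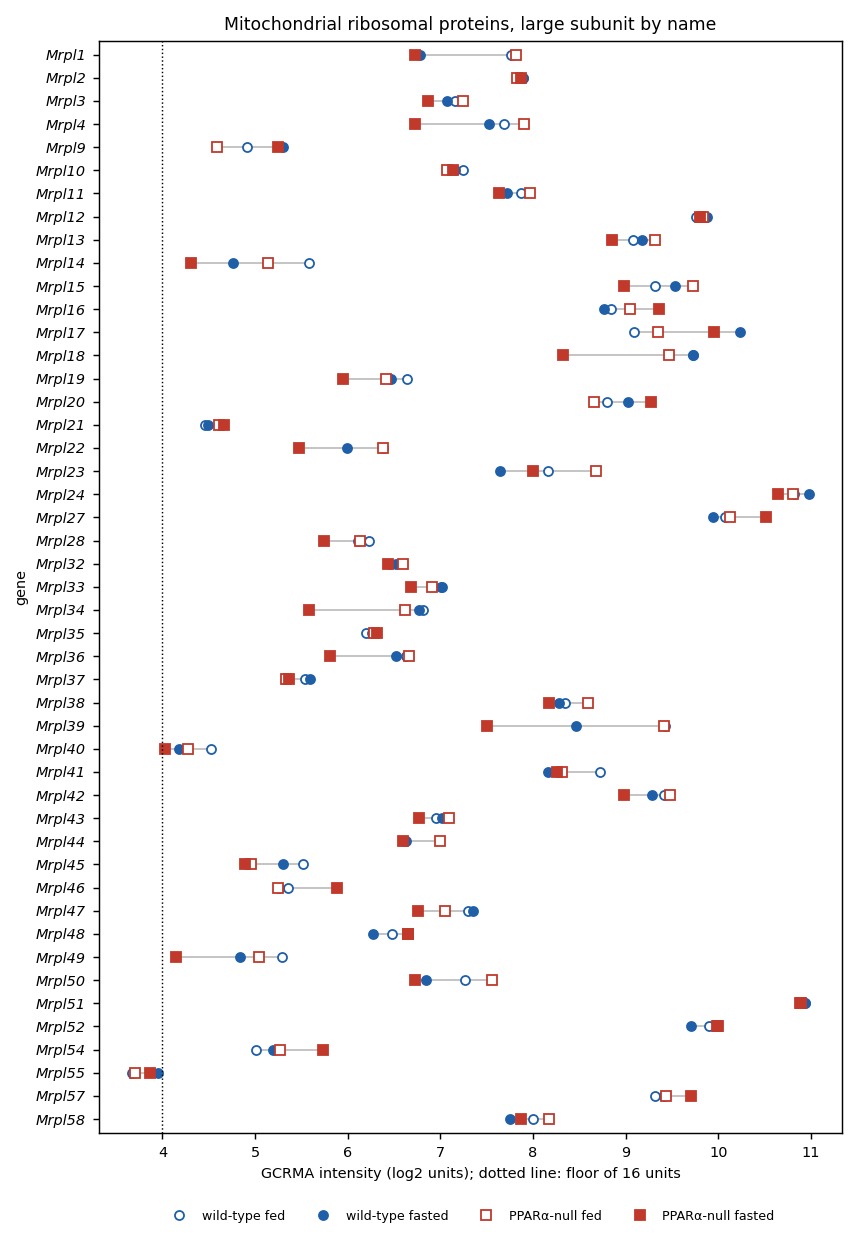
Large subunit members by name: GCRMA intensity (log2 units, horizontal axis) of each gene (rows) on the 4 arrays, 1 point per pooled array, with a grey line from the lowest to the highest array and a dotted line at the floor of 16 units. Mrpl39, Mrpl18 and Mrpl34 have the fasted PPARα-null array set far to the left, and Mrpl17 has both fasted arrays to the right.

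**Figure D2:**
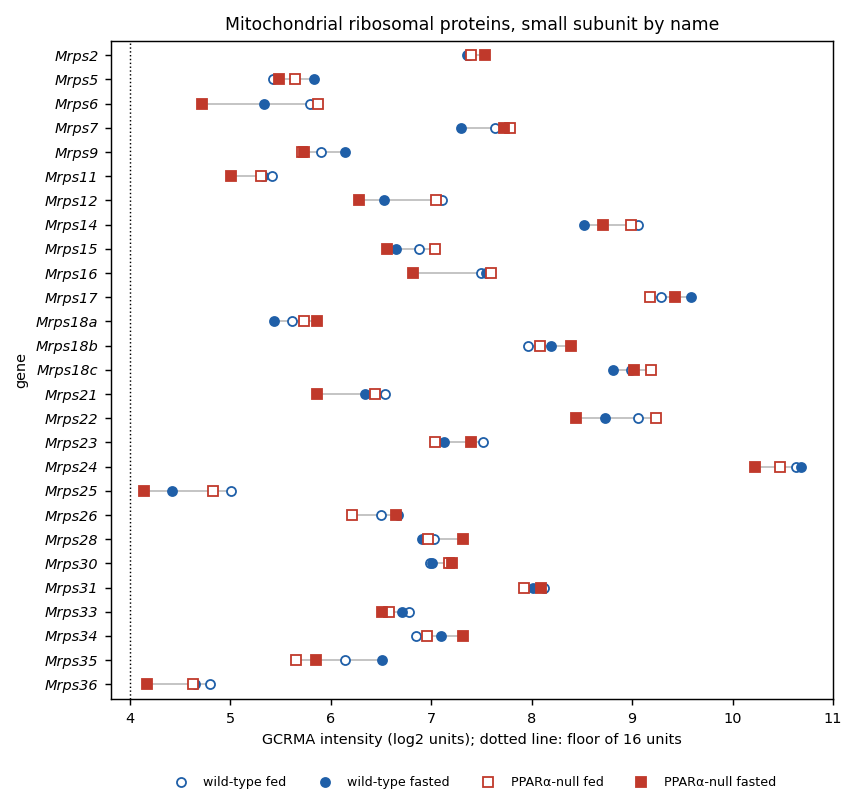
Small subunit members by name, drawn in the same way. The 4 arrays lie close together for most genes, and the fasted PPARα-null array lies to the left for Mrps6 and Mrps16.

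In fasted mice, 10 of the 73 members lay 1.5-fold or more below wild-type in PPARα-null liver (13.7%) and 2 lay above it (2.74%). Of all measured genes, 13.6% were lower and 8.58% higher by that rule, so the share of members that were lower was that of the array as a whole. Of the 57 members that averaged 64 units or more, 8 were lower and 1 was higher, where 18.4% and 10.4% of genes that bright were. Their median difference was -0.09 on the log2 scale, against -0.06 for all genes of that brightness. Over all 73 members the median difference was -0.12, against -0.01 for all measured genes, with 49 members below 0 and 24 above. After centring the medians were 0.03 and 0.10, with 4 members higher and 4 lower. Of all measured genes 12.6% were then higher and 10.2% lower. The sign of the members' median thus depends on the scaling, while that median stayed below that of all genes. Signed values given after levels are log2 differences between the arrays named.

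Most measured macrophage and stellate cell markers and some endothelial ones were higher in fasted PPARα-null than in fasted wild-type liver. Of 12 measured Kupffer cell and macrophage markers, 9 were past 1.5-fold and higher in fasted PPARα-null liver, beside 8.58% of all measured genes. The summed level of the 13 listed was 1015 units in fed wild-type, 623 in fasted wild-type, 1054 in fed PPARα-null and 1270 in fasted PPARα-null liver. On each array 1 to 3 of them were at or below 16 units. Of 4 measured stellate cell and fibroblast markers, 3 were higher by 1.5-fold or more in fasted PPARα-null liver (median 0.64). The summed level of the 7 listed was 1188 and 1259 units in fed and fasted wild-type, and 1481 and 1995 in fed and fasted PPARα-null liver. Most of that sum was Dcn, at 1876 units in fasted PPARα-null liver. Between the fed genotypes all 4 were above 0 (median 0.90), and Col3a1 (1.39) and Pdgfrb (1.31) stood highest in fed PPARα-null liver. Of 5 measured endothelial markers, Stab2 (1.02) and Eng (0.76) were past 1.5-fold between the fasted genotypes. Cdh5 (0.17), Tek (0.11) and Kdr (-0.20) lay within it. The summed level of the 6 listed was 439 and 524 units in fed and fasted wild-type, and 445 and 940 in fed and fasted PPARα-null liver. Stab2 alone measured 637 units in fasted PPARα-null liver. The summed level of the 10 hepatocyte markers ran from 104463 to 131016 units, highest in fasted PPARα-null liver. Of 2 measured lymphocyte and neutrophil markers, Ptprc was at -0.19 and S100a9 at 0.32 between the fasted genotypes. Sox9, the 1 cholangiocyte marker measured, was at 0.71. Exocrine pancreas markers were higher on the fed arrays, with a summed level of 655 units in fed wild-type and 940 in fed PPARα-null against 128 and 135 in the fasted groups. Most of the sum on the fed arrays was Cela1, at 552 units in fed wild-type and 745 in fed PPARα-null liver. Of the 5 measured, 1 was 1.5-fold or more lower on fasting in wild-type mice and 5 were in PPARα-null mice. The part of any of these cell types and tissues in the differences of the members was not tested.

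The lowest ratio was that of Mrpl18, a relative of bacterial L18 in the central protuberance at the top of the large subunit. It measured 847 units in fed and 850 in fasted wild-type liver, and 706 in fed but 319 in fasted PPARα-null liver, which is 2.66-fold below fasted wild-type. Mrpl34, a small protein of bacterial descent, measured 112, 109, 98.5 and 47.7 units in fed wild-type, fasted wild-type, fed PPARα-null and fasted PPARα-null liver, 2.28-fold lower in the last than in the second. In both genes 3 arrays lay together and the fasted PPARα-null array stood below them.

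Mrpl4, which lines the exit tunnel of the large subunit, measured 207, 185, 238 and 106 units in the same order of groups, 1.74-fold lower in fasted PPARα-null than in fasted wild-type. Mrps16, of bacterial descent in the small subunit, measured 180, 187, 193 and 113 units, 1.66-fold lower. Mrpl36, another relative of a bacterial protein, measured 99.0, 91.5, 101 and 56.1 units. For these as well the fasted PPARα-null array alone was low. Mrpl47, at the rim of the exit tunnel, measured 158, 163, 132 and 108 units (-0.59), and Mrps35, in the head of the small subunit, 70.5, 90.9, 50.4 and 57.9 units (-0.65), so that both had lower values in PPARα-null liver in either feeding state. After centring, Mrps16, Mrpl36, Mrpl47, Mrps35, Mrps6 and Mrpl49 lay within 1.5-fold.

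Mrpl39, a protein with no bacterial ribosomal relative that resembles a threonyl-tRNA synthetase, was 1.93-fold lower in fasted PPARα-null than in fasted wild-type. Its second probe set, at 115 units in fasted wild-type and 90.1 in fasted PPARα-null liver, differed by -0.36 only. The last of the 10 were dim. Mrps6, the neighbour of S18 proteins on the small subunit, measured 40.4 against 26.3 units (-0.62), and Mrpl49, of the set added after the bacterial ancestor, 28.6 against 17.7 (-0.69). The 2 higher members were Mrpl16, which lies near the tRNA sites of the large subunit, at 435 units in fasted wild-type and 654 in fasted PPARα-null liver (0.59), and Mrpl46 of the central protuberance, at 38.3 and 59.1 units (0.63).

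The medians of the subunits were close. The median difference between the fasted genotypes was -0.12 over 46 large subunit members, with 7 lower and 2 higher, and -0.16 over 27 small subunit members, with 3 lower and 0 higher. With Mrps30 (0.20) and Mrps18a (0.43) placed in the large subunit, the medians were -0.10 and -0.20. Members numbered below Mrpl37 in the large and below Mrps22 in the small subunit were taken as of bacterial descent, a rule by symbol only. Their medians were -0.20 in the large and -0.16 in the small subunit. Members with later numbers, Mrps36 among them, had a median of -0.11 in both. After centring, these 4 medians lay between -0.05 and 0.04.

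**Figure D3:**
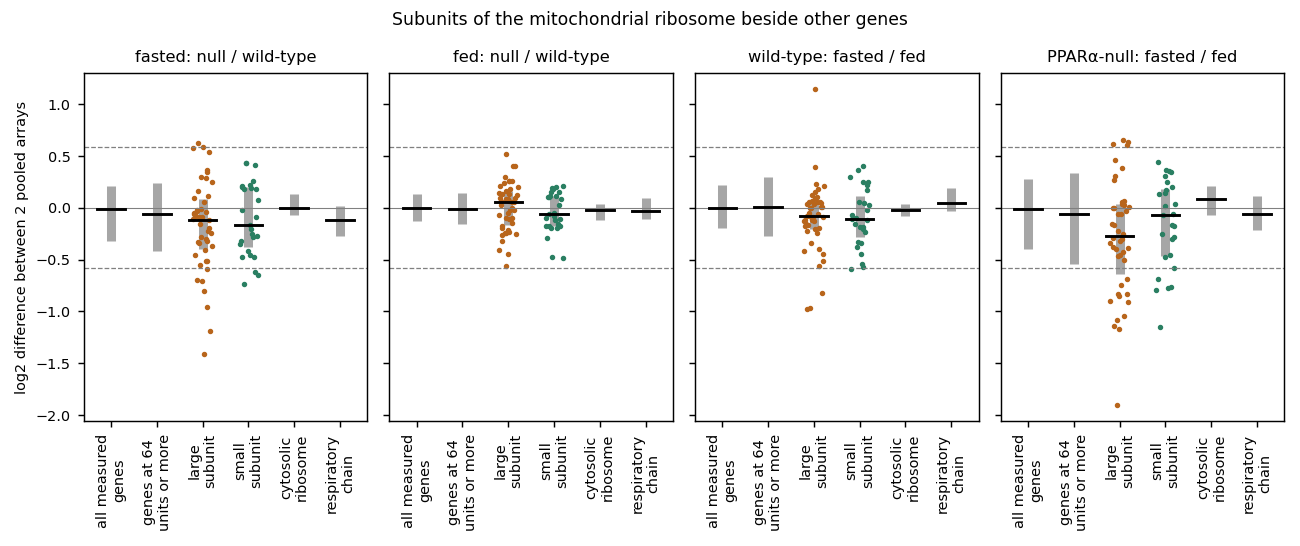
Log2 difference between 2 pooled arrays (vertical axis) in each of the 4 comparisons; each point is 1 member, black lines are medians, grey bars run from the lower to the upper quartile, also for the sets shown without points, and dashed lines mark 1.5-fold. No member lies outside the dashed lines between the fed genotypes, and the members spread most for fasting in PPARα-null mice.

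By place in the particle, the 3 proteins of the stalk, where translation factors dock, differed least between the fasted genotypes. Mrpl10 was at -0.02, Mrpl11 at -0.09 and Mrpl12, which also binds the mitochondrial RNA polymerase, at -0.08. Mrpl12 measured 866, 943, 910 and 892 units in fed wild-type, fasted wild-type, fed PPARα-null and fasted PPARα-null liver. Of the 6 proteins around the mouth of the exit tunnel, where the new chain leaves, 5 were below 0, from -0.59 for Mrpl47 to 0.35 for Mrpl23, with a median of -0.37 (-0.21 after centring). The 6 of the central protuberance ran from -1.41 for Mrpl18 to 0.63 for Mrpl46, with Mrpl27 at 0.58, so that proteins of one region lay at both ends of the members. The 7 measured in the head of the small subunit ran from -0.65 for Mrps35 to 0.43 for Mrps7.

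In fed mice no member was past the threshold between genotypes. Of 73, 0 were 1.5-fold higher and 0 lower in PPARα-null liver, where 2.38% of all measured genes were higher and 2.12% lower (2.39% and 2.98% of those averaging 64 units or more). The median was 0.02, and the values ran from -0.57 for Mrpl45, which tethers the particle to the inner membrane, to 0.52 for Mrpl23 of the exit tunnel rim. Mrpl45 measured 45.8 units in fed wild-type and 31.0 in fed PPARα-null liver, and Mrpl23 287 and 411 units. Mrpl18 (-0.26), Mrpl34 (-0.19), Mrpl4 (0.21) and Mrps16 (0.10), all low in fasted PPARα-null liver, lay within 1.5-fold here. Across the 73 members the fasted and the fed genotype differences, which share no array, had Pearson's r = 0.29 and Spearman's rho = 0.30, close to r = 0.27 and rho = 0.18 over all measured genes. Genes on the same arrays are not independent of each other.

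On fasting of wild-type mice 1 member was higher and 4 were lower than in fed liver (1.37% and 5.48%), against 8.2% and 8.29% of all measured genes (11.8% and 12% of the brighter ones). Mrpl17, at the rim of the exit tunnel, was at 544 units fed and 1205 fasted, 2.22-fold higher. Mrpl1, whose bacterial relative forms the movable stalk beside the tRNA exit site, was at 216 units fed and 110 fasted (-0.97), and Mrpl39 at 688 and 352 (-0.97). Mrpl14, at the face between the subunits, was at 47.9 and 27.0 units (-0.83), and Mrps25, a small subunit protein, at 32.0 and 21.3 (-0.59). The median of the members was -0.09, against 0 for all measured genes.

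On fasting of PPARα-null mice 17 of 73 members were lower by 1.5-fold or more (23.3%), against 18% of all measured genes, and 4 were higher (5.48%), against 12.4%. Of the 57 brighter members 13 were lower and 2 higher, where 23.8% and 15.4% of the genes of that brightness were. The median was -0.17 over all members, -0.27 in the large and -0.07 in the small subunit. After centring these medians were -0.04, -0.14 and 0.06, so that the sign in the small subunit turned. The lower genes were 12 of the large subunit and 5 of the small.

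The 5 members past the threshold on fasting in wild-type mice were past it in PPARα-null mice too. Mrpl17 was 1.5-fold higher on fasting in both genotypes, at 651 units fed and 990 fasted in PPARα-null liver (0.60). Mrpl1, at 225 and 106 units (-1.09), Mrpl14, at 35.1 and 19.8 (-0.83), Mrpl39, at 680 and 182 (-1.90), and Mrps25, at 28.4 and 17.6 (-0.69), were lower in both. Members past the threshold in wild-type mice alone numbered 0 and members past it in opposite directions 0, and 16 (21.9%) were past it in PPARα-null mice alone. Of all 6947 measured genes, 10.1% were past it in both genotypes in the same direction, against 6.85% of the members, 0.749% in opposite directions, 5.6% in wild-type mice alone and 19.5% in PPARα-null mice alone. Calls in PPARα-null mice alone were thus the most common kind among all genes too.

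Of those 16, 13 were lower. Mrpl4 (-1.17), Mrps6 (-1.15), Mrpl18 (-1.14), Mrpl34 (-1.05), Mrpl36 (-0.85), Mrpl49 (-0.89) and Mrps16 (-0.78) were also low against fasted wild-type, a comparison that shares the fasted PPARα-null array. Mrpl22, which reaches into the exit tunnel, was at 83.6 units fed and 44.4 fasted (-0.91) and at 83.5 and 63.5 in wild-type mice. Mrpl50 was at 189 and 106 units (-0.83) and Mrps22, added after the bacterial ancestor, at 602 and 348 (-0.79). Mrps12, a protein of the decoding centre, was at 132 units fed and 77.7 fasted in PPARα-null mice (-0.76) and at 138 and 92.6 in wild-type mice (-0.57, just inside the threshold), so that both genotypes were lower when fasted. Mrpl23 (-0.69) and Mrpl15 (-0.74) complete the 13, but another probe set of Mrpl15 was at 1.37 in the same comparison. The 3 higher in PPARα-null mice alone were Mrpl20, from 403 to 618 units (0.62), and the dim Mrpl9 (0.66) and Mrpl46 (0.63).

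Over all 73 members the fasting differences of the genotypes, which share no array, had Pearson's r = 0.60 and Spearman's rho = 0.53, close to r = 0.58 and rho = 0.53 over all measured genes. The fasting response in PPARα-null minus that in wild-type mice was past 1.5-fold downwards in 8 members and upwards in 2, with a median of -0.15. Of all measured genes 14.9% were past it downwards and 9.14% upwards, with a median of -0.03. The 8 were Mrpl18 (-1.15), Mrpl4 (-1.01), Mrpl34 (-0.998), Mrpl15 (-0.96), Mrpl39 (-0.93), Mrps16 (-0.83), Mrpl36 (-0.73) and Mrps6 (-0.70). The 2 were Mrps23 (0.73) and Mrpl46 (0.73). The value of Mrpl15 rests on the brightest of probe sets that pointed opposite ways on fasting in PPARα-null mice. That of Mrpl39 rests on its brighter probe set, and the other fell alike on fasting in wild-type (-0.86) and PPARα-null mice (-0.92).

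**Figure D4:**
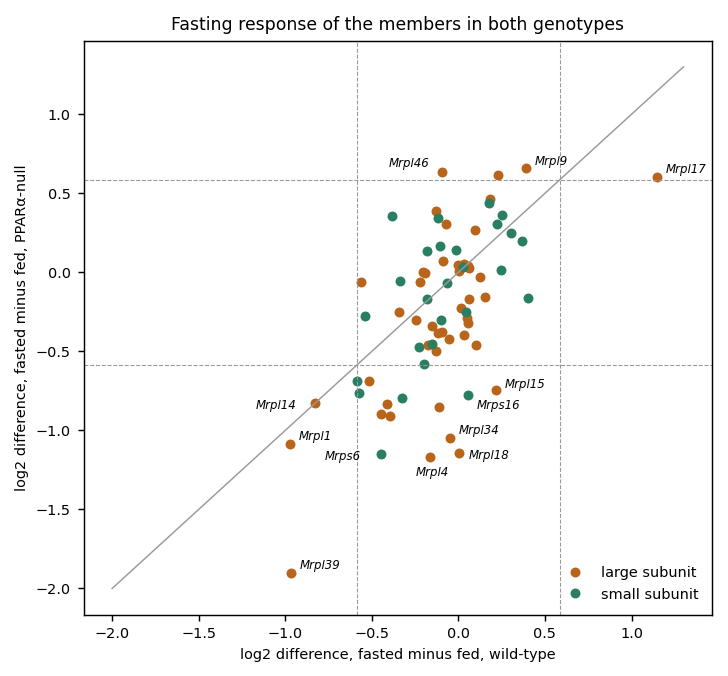
Log2 difference between fasted and fed liver in wild-type (horizontal axis) and PPARα-null mice (vertical axis), 1 point per measured member coloured by subunit; dashed lines mark 1.5-fold and the grey line equal responses. Mrpl1 and Mrpl14 lie near the grey line, and Mrpl18, Mrpl34 and Mrpl4 lie far below it with wild-type values near 0.

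Different probe sets of one gene give the only repeat measurement on these arrays. Only probe sets at 16 units or more on every array were compared, a stricter rule than that for measured genes. It left 20 members with 2 or more probe sets. The SD between probe sets of a gene was 0.37 on the log2 scale for the fasted genotype difference and 0.18 for the fed one. For fasting it was 0.22 in wild-type and 0.43 in PPARα-null mice. These probe sets fell on different sides of the threshold for 5 genes between the fasted genotypes: Mrpl13, Mrpl15, Mrpl39, Mrpl50 and Mrpl52. The brightest probe set of Mrpl52 was at 0.29, and another was at -1.03, at 532 units in fasted wild-type and 260 in fasted PPARα-null liver. The probe sets of Mrpl15 pointed in opposite directions, from -0.86 to 0.67 between the fasted genotypes and from -0.85 to 1.37 for fasting in PPARα-null mice. For Mrpl13 they were at -0.32, -0.58 and -0.78, and for Mrpl50 at -0.12 and -0.75. For fasting, probe sets split for Mrpl1 in both genotypes, where a dimmer one gave -0.31 in wild-type and -0.43 in PPARα-null mice, for Mrpl15 in both, for Mrpl9 in wild-type mice, and for Mrpl52 and Mrps23 in PPARα-null mice. Of the 74 members, 41 had 1 probe set, Mrpl18, Mrpl4 and Mrps16 among them, and the other probe set of Mrpl17 and of Mrpl34 was below 16 units on all arrays.

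Other nuclear genes that serve mitochondrial gene expression were taken from lists of factors. Of 44 measured, 13 were lower in fasted PPARα-null liver (29.5%, beside 13.7% of the ribosomal proteins and 13.6% of all measured genes) and 1 was higher, with a median of -0.38. After centring 9 of 45 were lower with a median of -0.22, where 10.2% of all measured genes were lower. Among genes of mitochondrial DNA upkeep and transcription, 5 of 8 were lower and all 8 were below 0, with a median of -0.71 (-0.56 after centring, with 4 lower). Tfam, which packages mitochondrial DNA and starts its transcription, measured 352, 394, 381 and 199 units in fed wild-type, fasted wild-type, fed PPARα-null and fasted PPARα-null liver (-0.98). The elongation factor Tefm was at 39.7 units in fasted wild-type and 20.6 in fasted PPARα-null liver (-0.95), the polymerase Polrmt at 68.3 and 40.7 (-0.75), and the polymerase subunit Polg2 at 30.0 and 16.4 (-0.87). Tfb2m, the second initiation factor, went from 185 units fed to 294 fasted in wild-type mice (0.67) and from 152 to 185 in PPARα-null mice (0.28), which left it 0.67 lower in fasted PPARα-null liver.

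The list of translation factors also took in Lrpprc, Slirp and Oxa1l, which are not translation factors in the strict sense. Of the 8 genes measured on this mixed list, 3 were lower in fasted PPARα-null liver and all 8 were below 0. The nearest to 0 was Oxa1l at -0.04, which is less than the shift from centring. The median of the 8 was -0.47 (-0.32 after centring, with 2 lower). Gfm2, which splits the ribosome after termination, measured 72.6, 56.0, 73.3 and 26.6 units in fed wild-type, fasted wild-type, fed PPARα-null and fasted PPARα-null liver (-1.07). Lrpprc, which stabilizes mitochondrial messages, measured 319, 443, 258 and 213 units (-1.05). Its fasting difference was 0.47 in wild-type and -0.27 in PPARα-null mice, both within 1.5-fold. The initiation factor Mtif2 was at 345 and 222 units in the fasted groups (-0.63). Among 7 tRNA synthetases, Iars2 (-0.76) and Fars2 (-0.70) were lower. Among 17 genes of assembly and rRNA modification, Mterf4 (-1.03, dim) and Ngrn (-0.92) were lower and C1qbp was higher, at 534 and 875 units (0.71). Of the 4 further proteins of the mitoribosome, Ptcd3 was lower (-0.67). Between the fed genotypes, 1 of the 44 was past 1.5-fold, Fastkd2, at 188 units in wild-type and 100.3 in PPARα-null liver (-0.91).

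Among the 9 regulators measured, Nrf1 (-0.03), Gabpa (-0.18) and Yy1 (0.39) lay within 1.5-fold between the fasted genotypes. Nrf1 was dim, at 19.5, 19.2, 19.1 and 18.8 units in fed wild-type, fasted wild-type, fed PPARα-null and fasted PPARα-null liver. These levels lie close to the floor of 16 units, where GCRMA narrows differences, so whether Nrf1 changed cannot be judged. Ppargc1a, the coactivator PGC-1α, measured 23.1 units in fed and 74.0 in fasted wild-type liver, and 21.9 in fed and 23.7 in fasted PPARα-null liver (-1.64 between the fasted groups). Ppargc1b, its relative PGC-1β, measured 22.2, 25.1, 15.6 and 92.5 units in the same order of groups (1.88). Myc measured 14.9, 18.9, 13.4 and 62.3 units (1.72). The coactivators thus stood high on different arrays, Ppargc1a in fasted wild-type and Ppargc1b in fasted PPARα-null liver.

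**Figure D5:**
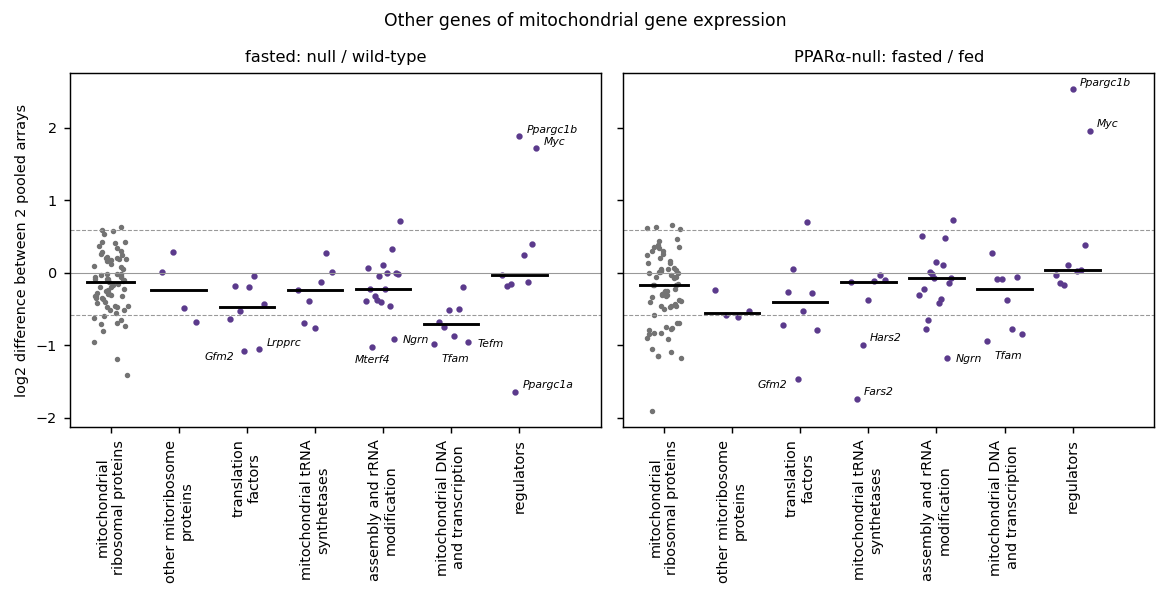
Log2 difference between 2 pooled arrays (vertical axis) for mitochondrial ribosomal proteins and the other lists of mitochondrial gene expression, for fasted PPARα-null over fasted wild-type (left) and fasted over fed PPARα-null (right); each point is 1 measured gene, black bars are medians, dashed lines mark 1.5-fold. The 8 genes of mitochondrial DNA and transcription all lie below 0 on the left.

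Fewer genes of the cytosolic ribosome and the respiratory chain were past the threshold. Between the fasted genotypes 1 of 43 cytosolic ribosomal proteins was lower and 1 higher, with a median of 0.00 (0.15 after centring). Of 74 nuclear subunits of the respiratory chain and ATP synthase, 2 were lower and 0 higher, and their median was -0.12 (0.03 after centring), the same as that of the mitochondrial ribosomal proteins. No test sets these lists apart.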

How the data were processed

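Liver RNA pools of 4 groups were measured on Affymetrix MOE430A arrays, 1 array each. The authors deposited linear intensities made with GCRMA, version 2.20 by the submitters' notes on processing. GCRMA corrects background by probe sequence, normalizes quantiles and summarizes each probe set, which narrows differences of dim probe sets. The arrays normalized together are not given in the sources used here. The sources differ on whether each pool held 5 mice, and the series' design text is followed.

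Values were converted to log2 and set to a floor of 16 units. Probe sets with several gene symbols (691) or none (1555) were left out, and of 20351 symbols checked against the genes of GRCm38.p6 in RefSeq, 0 differed. A gene was represented by the probe set whose log2 values averaged highest. Following the study's criterion for pooled arrays, a gene was counted at 1.5-fold or more, with no test, since a group holds 1 array. Precision is limited by the number of arrays.

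Members and gene lists were chosen with earlier results of these data known. Members named were those past the threshold with at least 64 units on the brighter array, up to 10 per comparison and direction, those whose probe sets split, the ends of each place group, Mrpl11, Mrpl12, Mrps12, Mrps18a and Mrps30, counts of 5 or fewer in full, and up to 4 genes of each pathway list. Dim Mrps6 and Mrpl49, Tcp1, the genes in the promoter section and the regulators given for levels fall outside that rule and were named after their values were seen. Alternatives were a 2-fold threshold, centring, quantile normalization, lowess (fraction 0.3), floors of 64 units or none, averaging probe sets, leaving out suffixed probe sets and counting every probe set. The counting was tested on simulated data. Python 3.11.15, numpy 2.4.6, pandas 2.3.3, statsmodels 0.14.6 and matplotlib 3.10.9 were used.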

Additional observations from a re-analysis of the deposited data

How the results depend on the processing

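No paired analysis was possible because each group holds 1 pooled array. For the same reason no replicate could be left out. With a 2-fold threshold, 0 members were higher and 2 lower between the fasted genotypes (3.4% and 6.22% of all measured genes). In wild-type mice 0 were lower on fasting (3.57%). In PPARα-null mice 0 were higher and 6 lower on fasting (5.41% and 9.08%). Percentages in brackets here are shares of all measured genes. Centring gave 4 higher and 4 lower between the fasted genotypes (12.6% and 10.2%). Medians were then 0.031 for all members, 0.037 for the large and -0.012 for the small subunit. For fasting in PPARα-null mice they were -0.041, -0.14 and 0.060. Quantile normalization gave 4 higher (10.7%) and a small subunit median of -0.051 between the fasted genotypes, and 1 member lower between the fed genotypes (2.19%). Lowess gave 4 higher between the fasted genotypes (9.33%). A floor of 64 units left 58 members, with 1 higher (9.8%), 6 lower (14.9%) and a small subunit median of -0.020 between the fasted genotypes. With that floor 2 were lower on fasting in wild-type (10.3%) and 2 higher on fasting in PPARα-null mice (14.3%). Averaging probe sets gave a small subunit median of -0.052 between the fasted genotypes. For fasting in wild-type mice it gave 0 higher and 2 lower (7.34% in each direction). Without suffixed probe sets, the small subunit median between the fasted genotypes was -0.0074. Fasting in PPARα-null mice then gave 2 higher members (12.7%) and a median of -0.27. Counting every probe set gave 16 lower and a small subunit median of -0.020 between the fasted genotypes, where 13.4% of all measured probe sets were lower. It gave 3 higher on fasting in wild-type and 7 higher on fasting in PPARα-null mice (8.12% and 12.1% of all measured probe sets). The other 144 counts and medians moved by at most 1.5 times or by less than 0.1 on the log2 scale. At exactly 1.5 times were 6 members lower on fasting in wild-type mice under centring (8.67%) and under lowess (8.84%). The same held for 3 higher between the fasted genotypes with every probe set (8.01% of all measured probe sets). The cause of these shifts was not tested.

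Of the values of single members, 228 kept their direction and their side of the threshold and 55 kept their direction but lost the threshold, 29 of these at 2-fold. Centring took Mrpl36 (-0.55), Mrpl47 (-0.44), Mrpl49 (-0.54), Mrps16 (-0.58), Mrps35 (-0.50) and Mrps6 (-0.47) inside the threshold between the fasted genotypes, and Mrpl23 (-0.56) and Mrps25 (-0.56) for fasting in PPARα-null mice. Without suffixed probe sets, Mrpl39 was at -0.36 between the fasted genotypes, and Mrpl1 at -0.31 and -0.43 for fasting in wild-type and PPARα-null mice. With probe sets averaged, Mrpl17 was at 0.50 and 0.33 for fasting in wild-type and PPARα-null mice.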

Other observations

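The members were also divided by the motifs in their promoters. Between the fasted genotypes, the median was -0.19 over 8 measured members with the NRF1 site and -0.10 over 56 without it, with 1 and 7 lower. For CCGGAAG it was -0.12 over 24 members with the motif and -0.11 over 40 without it, with 3 and 5 lower. For the YY1 site it was -0.30 over 7 members and -0.09 over 57, for the NRF1 core -0.09 over 21 and -0.16 over 43, and for the E-box -0.02 over 5 and -0.12 over 59.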
